A study of Homo sapiens with 4 samples.

Results

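CORO1C, MYO9A and MYO9B are 3 host genes of regulators of the actin cytoskeleton, and every line of the circRNA table that names one of them as host was taken, whatever its category. This gave 14 of the 12571 circRNAs listed: 3 of CORO1C, 7 of MYO9A and 4 of MYO9B. The genes had been chosen by the reads of their circles in irradiated and control libraries, so those reads are given below as a description, with no test. The table counts back-splice junction reads in total RNA of exosomes from pancreatic cancer cells, with 2 libraries of the control group (control 1 and control 2) and 2 of the group whose cells received 10 Gy of X-rays (irradiated 1 and irradiated 2). Every library of both groups carries the same label of 4 human pancreatic cancer cell lines (MIA PaCa-2, BxPC-3, SW1990 and PANC-1), so the line behind a library is not resolved, and all cells were grown at passages 14-16 in medium with 2% exosome-depleted serum. Nothing in the labels says that replicates came from separate cultures. The second irradiated library is uncertain: the study's circRNA tables name its column otherwise than the sample label and the study's library tables do, and the count of circRNAs those library tables give for it is not that of the column read here. That column, named as in the label, holds 1861 circRNAs and may be another library, so each value of irradiated 2 rests on the match by name.

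Coronin 1C, the product of CORO1C, binds actin filaments and the Arp2/3 complex, which builds branched filaments, and takes part in the turnover of branched networks at the leading edge of moving cells. Myosin IXA and myosin IXB, the products of MYO9A and MYO9B, are unconventional, single-headed motors that move along actin filaments. A circRNA forms when a splice donor is joined back to an acceptor upstream of it, and a read across that junction is the evidence counted here. Exonic circles are named by their circBase identifier (a public catalogue of circRNAs), or by their GRCh37 position where the table gives none.

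The junctions are printed because they are the only part of each circle that the reads identify. For each circle, the last 20 bases before the joined point stand in lower case and the first 20 bases after it, the start of its first exon, in capitals. The CORO1C and MYO9B circles with the most reads come first, followed by 4 MYO9A circles that share ends among themselves.
CORO1C hsa_circ_0000437: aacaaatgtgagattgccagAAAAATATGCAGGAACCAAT
MYO9B hsa_circ_0000907: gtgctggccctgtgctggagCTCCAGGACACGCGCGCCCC
MYO9A hsa_circ_0104450: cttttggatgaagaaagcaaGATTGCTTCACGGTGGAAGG
MYO9A hsa_circ_0036169: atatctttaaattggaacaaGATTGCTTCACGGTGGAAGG
MYO9A hsa_circ_0104463: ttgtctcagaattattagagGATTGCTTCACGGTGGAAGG
MYO9A hsa_circ_0007266: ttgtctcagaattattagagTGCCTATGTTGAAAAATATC
The capitals of the first 3 MYO9A circles are the same bases, the start of exon 7, and the lower-case bases of the last 2 are the same, the end of exon 8. A read that does not span the joined point cannot be assigned to any one of these MYO9A circles.

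The CORO1C circle hsa_circ_0000437 was the most read of all members and is short enough to print whole (chr12:109046048-109048186, minus strand, 251 nt). Its inner bases are those of the annotated exons between its ends, joined by assumption, since the reads identify only the junction. The same holds for the exons, lengths and coding bases given below for the other exonic circles. The first and last 20 bases, which meet in the closed circle, are in capitals.
hsa_circ_0000437, exons 7 and 8: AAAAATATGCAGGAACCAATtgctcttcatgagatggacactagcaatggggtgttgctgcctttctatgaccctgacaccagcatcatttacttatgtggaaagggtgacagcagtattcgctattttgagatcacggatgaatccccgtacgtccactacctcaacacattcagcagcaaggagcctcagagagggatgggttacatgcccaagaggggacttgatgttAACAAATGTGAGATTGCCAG

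At the genome, the bases next to the joined ends carry the splice signals. In the next lines, the dinucleotides AG before the first exon and GT after the last exon are in capitals, with 10 bases of exon on the inner side.
CORO1C hsa_circ_0000437, acceptor: tattattatcttccccccAGaaaaatatgc
CORO1C hsa_circ_0000437, donor: agattgccagGTaaagaatcgagattgtca
MYO9B hsa_circ_0000907, acceptor: ggctctgacctcccttctAGctccaggaca
MYO9B hsa_circ_0000907, donor: tgtgctggagGTgagcggggaagctggtcg
All 11 exonic member circles had AG and GT on the listed strand and both ends at annotated exon ends. Neither property sets them apart, since 2567 of 2567 exonic circles with a read had the dinucleotides and 99.61% had both ends at exon ends.

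Of the 14 member circRNAs, 12 had a read in the 4 libraries and none had a read in either control. Irradiated 1 held 11 of them with 80 reads and irradiated 2 held 3 with 22 reads. This equals 0.5281% of the 15150 junction reads of irradiated 1 (95% Wilson interval 0.4245 to 0.6567) and 0.3822% of the 5756 of irradiated 2 (0.2525 to 0.5781), a mean of 0.4551% ± 0.1031 (SD, n = 2). The 2 controls had 6544 and 8094 junction reads, and a count of 0 over both allows a share of up to 0.02049%, from 3 reads over the group. The irradiated share as counted was 23.8 times that limit, called the fold bound below. The bound was 13.2 without control 1, 10.6 without control 2, 18.65 without irradiated 1 and 25.77 without irradiated 2. It leaves out the counting error of the irradiated share and the spread between libraries. These intervals and limits cover counting error only.

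The absence of control reads is shared by nearly every exonic circle. Of the 2567 exonic circles with a read, 99.7% had a read in an irradiated library and none in a control, against 53% of all circRNAs with a read. Exonic circles took 58.04% of junction reads in the irradiated group (12134 of 20906, interval 57.37 to 58.71) and 0.04782% in the control group (7 of 14638, interval 0.02317 to 0.09869). The exonic members took 0.7664% of the exonic reads of the irradiated group (0.6261 to 0.938), and the same share of the 7 control exonic reads would be 0.05365 reads. At this depth the controls therefore cannot show whether the 3 genes' share among exonic circles differed between the groups. Fewer circles per vesicle and fewer vesicles that hold them cannot be told apart in pooled exosome RNA.

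**Figure D1:**
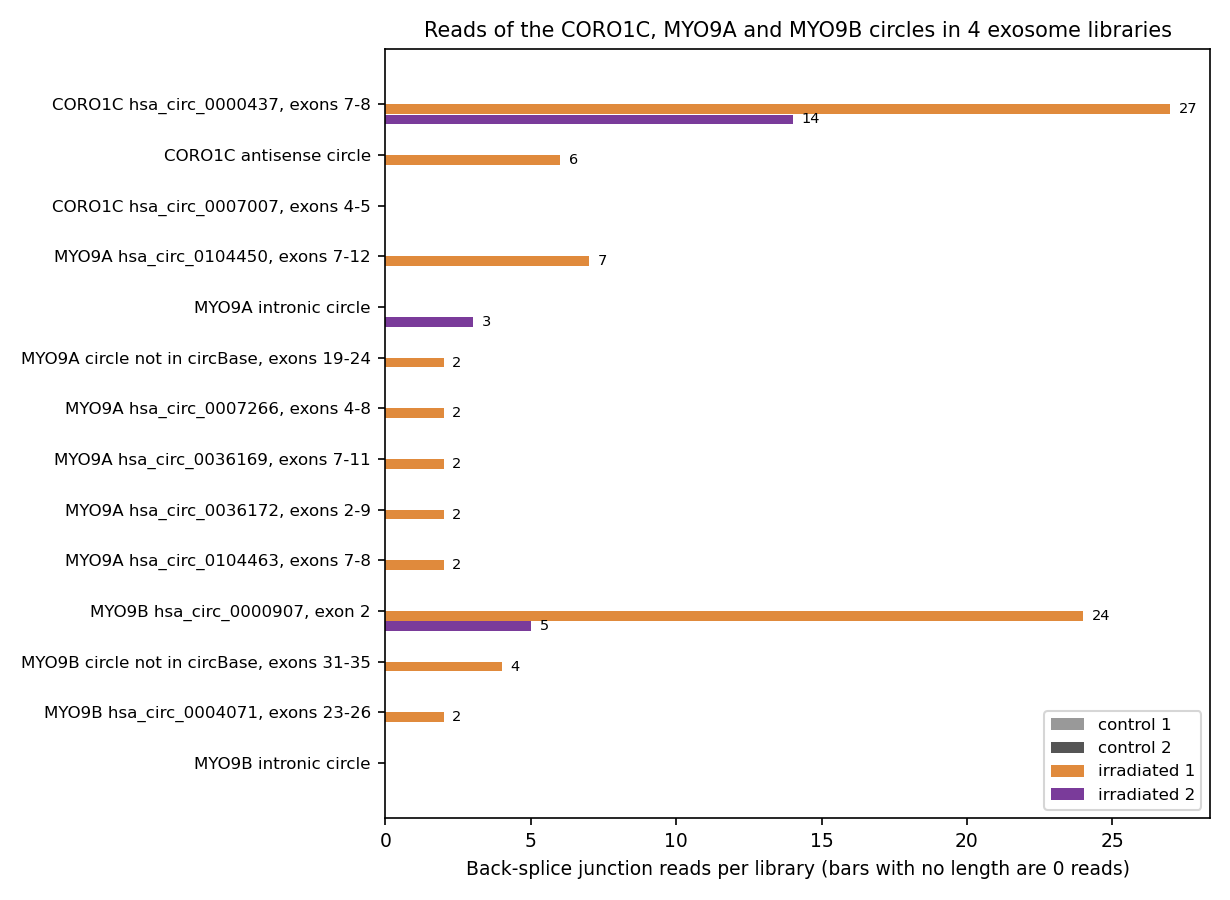
Horizontal bars give the back-splice junction reads of each of the 14 member circRNAs in the 4 libraries, with one bar per library and no bar where there were 0 reads. Both controls are at 0 throughout, and only hsa_circ_0000437 (27 and 14 reads) and hsa_circ_0000907 (24 and 5 reads) were read in both irradiated libraries.

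CORO1C was represented almost wholly by 1 circle. The circle hsa_circ_0000437 had 0 reads in control 1, 0 in control 2, 27 in irradiated 1 and 14 in irradiated 2. Both irradiated libraries thus lay above both controls, which held for 2 of the 12 members with a read, this circle and the MYO9B circle hsa_circ_0000907, and for 3.33% of all circRNAs and 10.9% of exonic circles with a read. Its share of junction reads was 0.1782% in irradiated 1 (0.1225 to 0.2592) and 0.2432% in irradiated 2 (0.1449 to 0.4079), and over both, as counted, 9.57 times the limit for the controls. By reads it ranked 14 of 2178 exonic circles in irradiated 1 and 2 of 668 in irradiated 2, where 1 circle had more reads and ZNF608 hsa_circ_0001523 had as many.

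The circle joins exon 8 back to exon 7 of CORO1C (11 exons in transcript CORO1C-201) and holds 251 coding bases, which is not a multiple of 3. Its introns are shorter than those of most exonic circles, with 2893 bases before it and 3251 after it, at percentiles 24.65 and 28.54 of the exonic circles with a read that have a host transcript. It is also short, at percentile 15.07 by spliced length. A second exonic circle of the gene, hsa_circ_0007007 (chr12:109052514-109055934, minus strand, exons 4 and 5, 312 nt), is listed and had no read in the 4 libraries.

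The third CORO1C line has the same ends on the opposite strand. It is called antisense in the table (chr12:109046048-109048186, plus strand, 2139 nt without splicing) and had 0, 0, 6 and 0 reads in control 1, control 2, irradiated 1 and irradiated 2. Its junction, with the first 20 bases after the joined point in capitals, is the reverse complement of the junction of hsa_circ_0000437 printed above.
CORO1C antisense circle: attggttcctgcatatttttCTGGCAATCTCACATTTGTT
The bases next to its ends are AC and CT, so AG and GT stand only on the strand of hsa_circ_0000437. In irradiated 1 the opposite strand took 18.18% of the 33 reads of both strands (8.611 to 34.39), and in irradiated 2 it took 0 of 14, for which the interval reaches 21.53%. The library kit named in the study marks strand. Such pairs were not particular to CORO1C: 134 of the 2567 exonic circles with a read (5.22%) had reads on a line of the opposite strand with the same ends, 14 of these pairs with more opposite reads, and among the 26 exonic circles with at least 20 reads in irradiated 1 there were 9 with such reads there.

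MYO9B also had 1 leading circle. The circle hsa_circ_0000907 (chr19:17212470-17213367, plus strand, 898 nt) had 0 reads in control 1, 0 in control 2, 24 in irradiated 1 and 5 in irradiated 2. Its share of junction reads was 0.1584% in irradiated 1 (0.1065 to 0.2356) and 0.08687% in irradiated 2 (0.03711 to 0.2032), and over both, as counted, 6.77 times the limit for the controls. It ranked 17 of 2178 exonic circles in irradiated 1 and 58 of 668 in irradiated 2, where it had 5 reads, and its share of exonic reads was 0.2384% and 0.242%.

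This circle is exon 2 alone, joined to itself, out of the 40 exons of MYO9B-220. Circles of 1 exon made up 5.986% of the exonic circles with a host transcript, and circles that start at exon 2 made up 28.05%. The exon holds 58 noncoding bases, then the start codon of the gene and 840 coding bases, which is 280 codons, so the circle has the first codons of myosin IXB. Its GC content was 63.36%, against 46.61% in the CORO1C circle and 37.3 to 42.62% in the MYO9A exonic circles. The other exonic MYO9B circles had 62.62% and 57.83%, so a high GC content was not particular to this circle within the gene. The introns on its sides are long, 25785 bases before it and 42839 after it, at percentiles 79.45 and 92.2.

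The 2 other exonic MYO9B circles were read in irradiated 1 alone. The circle at chr19:17316072-17318053 (plus strand, exons 31 to 35, 634 nt), which has no circBase identifier in the table, had 4 reads, and hsa_circ_0004071 (chr19:17308601-17311638, plus strand, exons 23 to 26, 517 nt) had 2 reads. An intronic line (chr19:17261353-17261683, plus strand, 331 nt) had no read in the 4 libraries.

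MYO9A differed from the other 2 genes in its number of circles, with few reads each. The most read was hsa_circ_0104450 (chr15:72270512-72302788, minus strand, exons 7 to 12 of the 42 exons of MYO9A-201, 689 nt), with 0, 0, 7 and 0 reads in control 1, control 2, irradiated 1 and irradiated 2. Each of 5 further exonic circles had 2 reads in irradiated 1 and 0 in the other 3 libraries. Of these, hsa_circ_0036169 (chr15:72283444-72302788, 567 nt) spans exons 7 to 11 and hsa_circ_0104463 (chr15:72300167-72302788, 225 nt) spans exons 7 and 8. The circle hsa_circ_0007266 (chr15:72300167-72320134, 445 nt) spans exons 4 to 8, and hsa_circ_0036172 (chr15:72292192-72338975, 1541 nt) spans exons 2 to 9. The fifth, at chr15:72192028-72208833 (908 nt), has no circBase identifier in the table and spans exons 19 to 24.

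Exons 7 and 8 were therefore in 5 of the 6 exonic MYO9A circles. Of these, 3 start at exon 7 and differ only in the exon at which they end, and a pair of them end at exon 8 and differ in the exon at which they start. The circle hsa_circ_0036172 holds 71 noncoding bases, the start codon and 1470 coding bases (490 codons), and the intron before it is 71045 bases long. In irradiated 1, MYO9A had 6 exonic circles, and of the 1569 hosts of exonic circles in that library 3 had more and 4 others had as many. Its most read circle took 41.18% of its exonic reads there, against 80% for MYO9B and 100% for CORO1C. The median of the 287 hosts with at least 10 exonic reads in that library was 70% (quartiles 53.33 and 100).

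The last MYO9A line is intronic (chr15:72393455-72393803, minus strand, 349 nt) and had 0, 0, 0 and 3 reads. It was the only MYO9A line with a read in irradiated 2. No AG and GT stand next to its ends on the listed strand, although they do on the opposite strand, and its GC content was 78.51%. With 32 identical bases around its ends, the joined point is not fixed, so these dinucleotides do not tell its strand. Its 3 reads are part of the member total of irradiated 2.

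**Figure D2:**
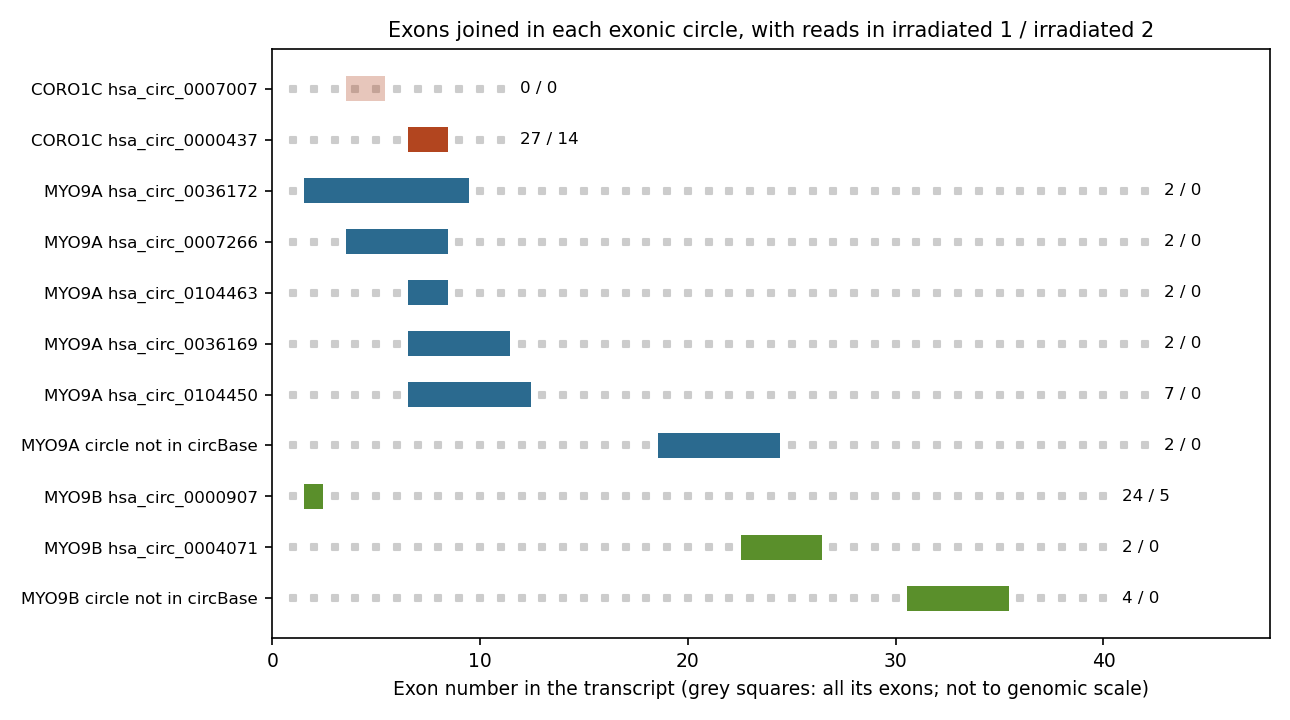
Each row is an exonic circle, with a coloured bar over the exons it joins (x axis, exon number in the transcript, not genomic distance) and grey squares for all exons of the transcript; the numbers at the right are its reads in irradiated 1 and irradiated 2, and the pale bar is the circle without reads. The MYO9A circles pile up over exons 7 and 8, whereas the MYO9B circle with 24 and 5 reads is exon 2 alone.

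The irradiated libraries differed in how much of their reads were exonic, 66.46% in irradiated 1 and 35.89% in irradiated 2, so the genes were also set against the exonic reads of each library (10068 and 2066). CORO1C took 0.2682% of exonic reads in irradiated 1 (0.1844 to 0.3899) and 0.6776% in irradiated 2 (0.4041 to 1.134). The ratio of irradiated 2 to irradiated 1 was 2.527 with a counting interval of 1.225 to 4.991. For MYO9B the shares of its 3 exonic circles were 0.298% (0.2088 to 0.4251) and 0.242% (0.1034 to 0.5653), a ratio of 0.8122 (0.246 to 2.114). The intervals of the MYO9B shares thus overlap, and those of the CORO1C shares do not. This was not particular to CORO1C, since ZNF608 hsa_circ_0001523 had nearly the same counts, 28 reads in irradiated 1 and 14 in irradiated 2.

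For MYO9A the exonic share was 0.1689% in irradiated 1 (0.1055 to 0.2703) and 0 of 2066 reads in irradiated 2, which allows up to 0.1452%. That limit lies within the interval of irradiated 1, so a lower MYO9A share in irradiated 2 was not detectable at this depth. The 3 genes together took 0.735% (0.5859 to 0.9217) and 0.9197% (0.5895 to 1.432), a ratio of 1.251 (0.7135 to 2.094). With 1 pair of libraries the spread between replicates cannot be tested for any of them.

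**Figure D3:**
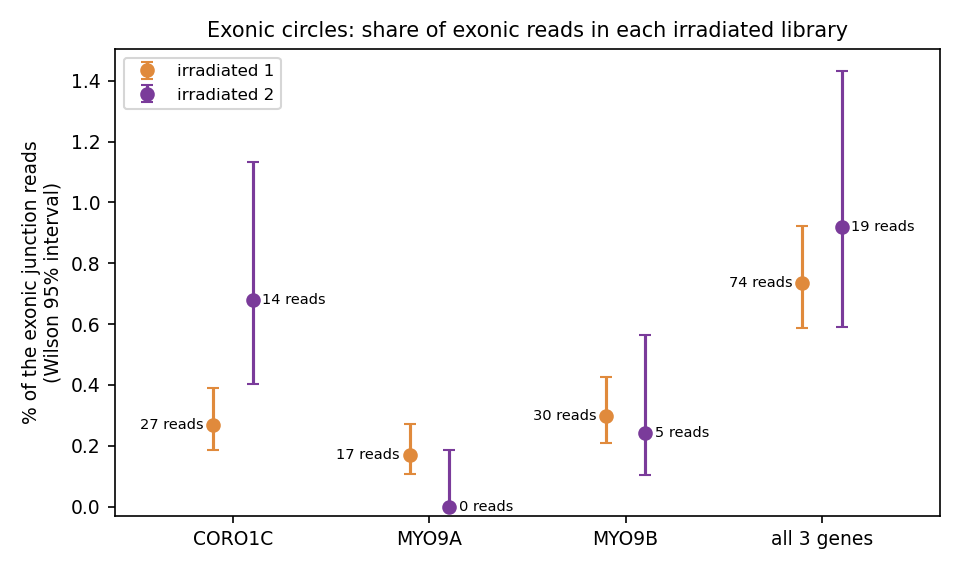
Points give the percent of each irradiated library's exonic junction reads that fell on the exonic circles of each gene and of all 3 genes, with 95% Wilson intervals and the reads written beside each point. The CORO1C share is 0.2682% in irradiated 1 and 0.6776% in irradiated 2, while the intervals overlap for the other genes and for all 3 together.

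The circRNAs most like the leading member circles over the 4 libraries were found by the Bray-Curtis distance of junction reads scaled to the depth of each library, among circRNAs of other genes with at least 5 reads. This distance is 0 for identical values. For CORO1C hsa_circ_0000437 they were ZNF608 hsa_circ_0001523 (28 and 14 reads in irradiated 1 and irradiated 2, distance 0.00777), SLC8A1 hsa_circ_0000994 (27 and 9 reads, distance 0.1149) and SMARCA5 hsa_circ_0001445 (27 and 7 reads, distance 0.1686). For MYO9B hsa_circ_0000907 they were MTCL1 hsa_circ_0000825 (23 and 5 reads, distance 0.01364), ASAP1 hsa_circ_0008934 (18 and 5 reads, distance 0.08782) and SMARCA5 hsa_circ_0001445 (distance 0.1001). All 5 are exonic and had no control read. For MYO9A hsa_circ_0104450 the measure gave no neighbour to name, since 142 circRNAs had the same values, 7 reads in irradiated 1 and 0 elsewhere.

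**Figure D4:**
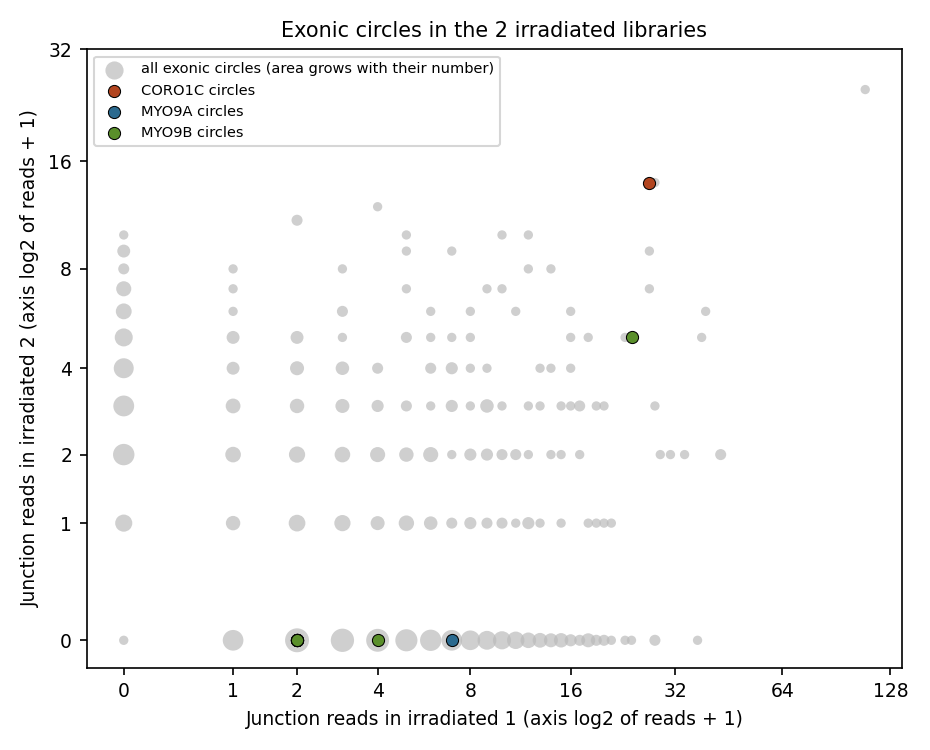
Exonic circles by their junction reads in irradiated 1 (x axis) and irradiated 2 (y axis), both on a log2 scale of reads + 1; the area of a grey point grows with the number of circles at that place, and member circles are coloured by gene. CORO1C hsa_circ_0000437 (27 and 14 reads) and MYO9B hsa_circ_0000907 (24 and 5 reads) stand among the most read circles, and the other read members lie on the axis of 0 reads in irradiated 2, where the MYO9A circles with 2 reads lie under the MYO9B point.

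The circRNAs of other coronins and myosins were mostly not exonic. Exonic circles were 2567 of the 9405 circRNAs with a read, and 10 of 12 for the member genes. That last count is bound up with their choice by irradiated and control reads, since exonic circles had almost no control read. Apart from the 3 member genes, 27 circRNAs of 16 coronin and myosin genes had a read, and 2 of these were exonic. Both came from MYO1E, a class I myosin, with 3 and 2 reads, all in irradiated 1. The 27 circRNAs had 6, 26, 33 and 29 reads in control 1, control 2, irradiated 1 and irradiated 2. Their 2 exonic circles had no control read, like the members and nearly all exonic circles. None of the 3 coronin circRNAs among them, of CORO2B and CORO7, was exonic, and none had more than 3 reads. Of the 6 myosin circRNAs with at least 5 reads, 3 had reads in irradiated libraries alone and 3 in controls alone. The first 3 were an antisense circRNA of MYO10, a filopodial myosin, with 10 reads in irradiated 1, an antisense circRNA of MYO19, a mitochondrial myosin, with 5 in irradiated 2, and a sense overlapping circRNA of MYO5C, a vesicle-transport myosin, with 5 in irradiated 1. Among those read in controls alone, an antisense circRNA of MYO1F and an intronic circRNA of MYO18B each had 5 reads in control 2.

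Irradiated was then tested against control across the whole table with edgeR's quasi-likelihood test, on the 1957 circRNAs whose reads summed to 5 or more, to see how circles of other actin regulators behaved. A fold change over 2 with an unadjusted p under 0.05, the rule of the study's methods, was met by 69 circRNAs higher in irradiated (3.53% of those tested) and by 4 lower (0.204%), and 2 (0.102%) passed an adjusted p of 0.05. With 1 library left out the number called higher was 13 without control 1, 5 without control 2, 113 without irradiated 1 and 367 without irradiated 2. Of the members, 4 reached 5 reads and entered the fit, hsa_circ_0000437 and its antisense line, hsa_circ_0104450 and hsa_circ_0000907, and no p is given for them.

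Of 107 circRNAs with a read from the lists of actin regulators, the member genes left out, 23 were tested with edgeR and 0 were called in either direction, at an unadjusted p under 0.05 or after adjustment. DESeq2 also called 0, edgeR's likelihood ratio test called 2 higher, and without irradiated 1 or irradiated 2 the quasi-likelihood test called 1 and 8 higher. Their median log2 fold change was 5.22, against 5.0 over all circRNAs tested and 5.25 over the exonic circles tested, the member genes left out. It was 5.0 for the 3 of the Arp2/3 and WASP group, 5.41 for the 9 of the crosslinking and adhesion group and 0.47 for the 6 myosins. A circRNA with 0 reads in a whole group has no measured ratio, so its fold change rests on the scaling and on how the fit treats 0. ABI2 hsa_circ_0118827, with 6 reads in irradiated 1 and 0 in both controls, was given 5.0. Without irradiated 1 the median over all circRNAs tested was -4.06. The myosin median falls between 3 circRNAs read in irradiated alone and 3 in controls alone, none of them exonic, so it describes neither set. The counts by group were 0 of 6 myosins, 0 of 3 of the Arp2/3 and WASP group and 0 of 9 of the crosslinking and adhesion group, and no coronin was tested. Beside them, 3.53% of all circRNAs tested were called higher, and 5.568% of the exonic circles tested, the member genes left out. Sets this small could hold 0 calls at those shares. Both irradiated libraries lay above both controls for 3 of the 107 (2.804%), against 3.33% of all circRNAs and 10.9% of exonic circles with a read. The 3 are among the 41 exonic circles of the lists, so they are no more frequent than elsewhere. They were IQGAP1 hsa_circ_0000651 with 12 and 1 reads, IQGAP1 hsa_circ_0000652 with 9 and 4 reads, and UTRN hsa_circ_0004826 with 1 and 3 reads. IQGAP1 is a scaffold that links Rac1 and Cdc42 to actin, and UTRN encodes utrophin, which ties actin to the membrane. The smallest p in the lists was that of IQGAP1 hsa_circ_0000652 (log2 fold change 6.50, adjusted p = 0.549 in edgeR).

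The other named actin circles, of 2 of the groups, were nearly all read in 1 irradiated library. In the Arp2/3 and WASP group, ABI2 hsa_circ_0118827 had 6 and NCKAP1 hsa_circ_0057293 had 5 in irradiated 1, both of subunits of the WAVE complex. Antisense circRNAs of WIPF3 and WASF2 had 5 reads in irradiated 2 and 4 in control 1. In the crosslinking and adhesion group, TMOD3 hsa_circ_0035292, of a protein that caps filament ends, had 10 reads and IQGAP1 hsa_circ_0007201 had 8, all in irradiated 1.

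Sequence around the circles was compared for complementary stretches, since base pairing of the introns on either side is known to favour circle formation. The longest run in the 1000 bases before a circle that was complementary to the 1000 bases after it was 14 bases for hsa_circ_0000437, 18 for hsa_circ_0000907 and 18 for hsa_circ_0104450, at percentiles 66.34, 77.02 and 77.02 of the exonic circles with a read, whose median was 11 bases. With 5000 bases on each side the runs were 21, 33 and 26 bases, at percentiles 35.96, 77.09 and 52.86, with a median of 26. The MYO9B circle was thus above the median by both windows and the CORO1C circle by the shorter one alone. For the CORO1C circle the 5000-base windows run past its introns of 2893 and 3251 bases, so that value is not of the introns alone.

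Markers of cell types were sparse in these libraries. Circles of 3 of 16 pancreatic epithelial genes had a read, MUC16, EPCAM and MET, while the keratins KRT7, KRT8, KRT18 and KRT19 had no line in the table. Their summed reads in control 1, control 2, irradiated 1 and irradiated 2 were 7, 0, 5 and 3. The sums were 2, 2, 26 and 0 for blood genes, of which HLA-DRB1 gave all 26, 6, 0, 0 and 14 for stroma genes, of which COL3A1 gave 8 and VIM 6 in irradiated 2, and 17, 16, 4 and 0 for neuron genes. Neuron genes thus had more reads in both controls than in both irradiated libraries, and stroma genes had most in irradiated 2. However, 0 of the 3 blood, 6 stroma and 11 neuron circRNAs with a read were exonic, and 2 of the 4 epithelial ones were. For the members it was 10 of 12, so these sums mostly count another class of junction than the member reads. Apart from HLA-DRB1, the blood genes with reads, PTPRC and PPBP, had 2 each, in controls alone. The part of these markers in the reads of the member circles was not tested.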

How the data were processed

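Exosome total RNA of 4 libraries (2 per group) was depleted of rRNA by the authors, made into strand-marked libraries and sequenced. Per the labels, reads were processed with CASAVA 1.8 and cutadapt 1.9.3 and aligned to hg19 with STAR 2.5.1b, and the study's methods name DCC as the junction caller. The authors deposited, per circRNA, whole back-splice junction read counts, log2 CPM values from edgeR (their lowest value, 4.91, stands for 0 reads, and they entered no test) and a predicted length. A further 4 columns of per-library values, whose names match no sample here, were not used.

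The table held 12571 circRNAs and 1 emptied line. Shares carry 95% Wilson intervals, and a group at 0 is bounded by 3 counts. circRNAs with at least 5 reads were tested in edgeR 4.0.16 (R 4.3.3) with TMM scaling, the quasi-likelihood F test and Benjamini-Hochberg adjustment, with a common dispersion of 4.18. The code was tried on simulated data with less spread and more reads per library than these. That trial does not show how the test performs at the spread and depth found here. TMM factors were 2.30, 2.12, 0.325 and 0.631 in control 1, control 2, irradiated 1 and irradiated 2. Depth was 5756 to 15150 junction reads. Positions, exons and sequences were read from GRCh37 and GENCODE v44lift37. Text names every member with a read, up to 4 most read circRNAs per actin list, and the 3 nearest patterns; the UTRN, MYO1E and MYO18B circles and the markers were named after their values were seen. Members and lists were chosen with earlier results of these data known. p-values measure only the spread between these samples, which may be technical. The total over the actin lists includes 1 list whose own values are not reported here.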

Additional observations from a re-analysis of the deposited data

How the results depend on the processing

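The member fold bound was 23.8, and it was 31.7 per mapped read (the mapped total of irradiated 2 may belong to another library, here and below) and 21.7 over exonic circles alone, and between 10.6 and 25.8 with 1 library left out, lowest without control 2 and 13.2 without control 1. A bound as a share of exonic reads could not be computed, since the controls hold 7 exonic reads. The number of circRNAs called higher (69), lower (4) and by adjusted p (2) moved with most settings, in that order: 14, 0 and 0 with RLE size factors, 7, 25 and 9 with no scaling factors, 21, 16 and 6 with mapped reads as library sizes, 42, 9 and 2 with no filter beyond 1 read, 4, 9 and 12 with filterByExpr (21 circRNAs tested), 12, 0 and 0 in DESeq2, 159, 4 and 0 in edgeR's likelihood ratio test, and 146, 5 and 1 in the newer form of glmQLFit. With 1 library left out the counts ran from 5 to 367 higher, 0 to 19 lower and 0 to 207 by adjusted p, with 367 and 207 without irradiated 2, 113 and 121 without irradiated 1, 13 and 0 without control 1, and 5 and 0 without control 2. The median log2 fold change over all tested was 5.0, 3.69 with no scaling factors, 4.35 with mapped reads, 3.38 with no filter and 3.47 with the replicate block, and it turned to -4.06 without irradiated 1 and -1.37 with filterByExpr. In the remaining settings it lay between 4.70 and 5.92. Among the actin lists, 0 were called higher, and 2 in the likelihood ratio test, 3 in the newer form of glmQLFit and 0 to 8 (adjusted p, 0 to 4) with 1 library left out, with 8 and 4 without irradiated 2 and 1 and 1 without irradiated 1. No actin circRNA was tested with filterByExpr, and the other settings, DESeq2 included, called 0. With 5000 bases of flank, the percentile of the complementary stretch was 35.96 for hsa_circ_0000437 and 52.86 for hsa_circ_0104450, against 66.34 and 77.02. The cause of these shifts was not tested.

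The correlation of replicate differences was 0.0354, but it cannot decide whether same-numbered replicates pair the samples. Of all circRNAs with a read, 53% had no control read, and for these the control libraries do not differ in reads. The correlation was taken over the 1957 circRNAs with at least 5 reads, for which that share was not counted. A fit blocked on the replicate number called 73 circRNAs higher, 5 lower and 16 by adjusted p, with 0 in the actin lists.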

Other observations

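The ends of the intronic MYO9A line lie in repeated sequence: 32 identical bases stand around its 2 ends, whereas over the 2567 exonic circles with a read the median was 2 and the highest 10. Its joined point can therefore be placed at any of several positions within those bases.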
